A study of Mus musculus with 18 samples.

Results

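The long noncoding RNAs (lncRNAs) Malat1, Neat1, H19, Meg3, Gas5, Tug1, Miat and Snhg20 were followed in the mouse heart after acute myocardial infarction (AMI). They were chosen by name as lncRNAs of heart and stress biology, and all 8 symbols were found among the 24419 in the table. The study profiled left ventricle from 18 male C57BL/6 mice, 8 weeks old, none of which carried a transgene or a deletion in the labels. Infarcted tissue was taken from all but the control mice. All mice were anaesthetised with sodium pentobarbital. A control group of 3 mice, which the study's text also calls sham, was set beside 3 mice each at 10 min, 1 h, 6 h, 24 h and 72 h after the proximal left anterior descending coronary artery was tied. Values are FPKM, fragments per kilobase of transcript, scaled to the mapped fragments of the library, with 1 value per gene and mouse. A gene was tested when it reached 1 FPKM in at least 1 mouse, which 7 of the 8 lncRNAs and 13333 of all symbols did. Miat did not.

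These RNAs are annotated as noncoding and act in different places in the cell. Malat1 is held in nuclear speckles, the stores of splicing factors, and Neat1 builds the paraspeckle, a nuclear body that enlarges in many kinds of stress. H19 and Meg3 are imprinted RNAs, transcribed from the maternal chromosome, high in the fetus and low in most adult tissues. Gas5 and Snhg20 are host genes, whose introns or exons carry small RNAs, and spliced Gas5 is decayed while ribosomes read it, so that it accumulates when translation slows. Tug1 is a broadly expressed RNA, and Miat was first named for a link to myocardial infarction.

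How the RNAs end decides what a library selected on poly(A) tails can hold, so the ends of their annotated transcripts are shown first, from GENCODE M21 on mm10. The 60 bases are written 5′ to 3′, with the polyadenylation signal AATAAA or the A-rich tract AAAAGCAAAA in capitals.
Neat1, short form (3004 nt), last 60 bases: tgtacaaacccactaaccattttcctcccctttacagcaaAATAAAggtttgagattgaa
Neat1, long form (20771 nt), last 60 bases: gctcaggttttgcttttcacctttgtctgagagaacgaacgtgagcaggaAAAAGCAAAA
Malat1 (6983 nt), the 60 bases that end in its A-rich tract: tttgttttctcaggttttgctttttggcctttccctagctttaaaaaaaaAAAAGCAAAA
H19 (1217 nt), last 60 bases: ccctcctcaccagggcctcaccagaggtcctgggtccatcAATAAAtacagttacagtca
Long Neat1 ended in the A-rich tract with no AATAAA or ATTAAA in its last 60 bases, and 292 bases followed the tract in the Malat1 model. By textbook knowledge both RNAs are cut behind this tract and carry no poly(A) tail, whereas short Neat1 and H19 are polyadenylated. The FPKM of Malat1 and Neat1 therefore need not follow their amounts in the cell. At least 1 annotated transcript of every one of the 8 genes had AATAAA or ATTAAA in its last 60 bases. The share ran from 1 of 4 for Neat1 to 6 of 7 for Snhg20, with 18 of 25 for Gas5 and 3 of 4 for Malat1.

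The promoters of Gas5 and Meg3, which were both called higher at 72 h, are shown because the same element stands near both start sites. RefSeq windows on GRCm38.p6, from 250 bases before to 50 after a start site, were given for 6 of the 8 genes, and not for H19 or Neat1. Capitals mark TGACGTCA, the cyclic AMP response element (CRE), and, in Meg3, CCAAT and the overlapping TATA box matches TTTATA and TATAAA.
Gas5, chr1:161034916-161035215, plus strand: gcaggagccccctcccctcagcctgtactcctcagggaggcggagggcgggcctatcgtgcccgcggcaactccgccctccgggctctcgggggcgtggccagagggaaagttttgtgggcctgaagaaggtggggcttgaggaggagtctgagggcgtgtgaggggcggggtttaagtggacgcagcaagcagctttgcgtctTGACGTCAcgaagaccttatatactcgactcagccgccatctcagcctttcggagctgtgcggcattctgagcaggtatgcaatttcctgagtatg
Meg3, chr12:109540746-109541045, plus strand: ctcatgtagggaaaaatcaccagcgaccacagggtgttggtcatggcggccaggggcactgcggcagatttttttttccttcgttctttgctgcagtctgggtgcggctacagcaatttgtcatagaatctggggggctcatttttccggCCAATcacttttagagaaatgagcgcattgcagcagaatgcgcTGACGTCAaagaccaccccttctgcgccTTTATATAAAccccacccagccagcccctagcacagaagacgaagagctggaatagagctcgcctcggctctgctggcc
The CRE began 46 bases before the start in Gas5 and 57 bases before it in Meg3. Both genes had a second window, at chr1:161034351-161034650 and chr12:109545148-109545447, and neither of these held it or any other motif searched. Of 32851 promoter windows of the same length, 1.79% held it on either strand. Tug1, also called higher at 72 h, had no CRE in its window, and 53.1% of all genes were called higher at that time. A part of the element in these levels was not tested. Of the other motifs searched on both strands, the TATA box (TATAAA) stood in 13.6% of all windows and CCAAT in 37.4%, and among the 6 genes only the Meg3 window shown held them. The E-box CACGTG (7.15%), the AP-1 site TGANTCA (7.81%) and the heat shock element (GAA, TTC and GAA with any 2 bases between them, 0.603%) had no match in the windows of these 6 genes, and ACGTG, the core of the hypoxia response element (19.6%, also part of CACGTG), had 1 match, in Malat1.

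FPKM do not give the read counts, and the depth of the libraries, estimated from the lowest FPKM relative to control mouse 1, ran from 0.818 to 1.31. All 9 cardiomyocyte markers were present in every group, as the label heart implies, and their summed FPKM went from 43914 to 46092 in control mice down to 17769 to 21641 at 72 h. Summed fibroblast markers, 9 genes, went from 233 to 263 up to 3740 to 4885 FPKM, and summed leukocyte markers, 10 genes, from 190 to 213 up to 3438 to 4555 FPKM. Their part in the changes below was not tested, and in whole tissue fewer cells of a type and less RNA per cell cannot be told apart. From control to 72 h the log2 fold change of the median gene was 0.29 as deposited and 0.03 after median-of-ratios scaling, which sets the typical gene equal in all mice. At 24 h these were 0.13 and 0.02. Results are given in FPKM as deposited, with the value after median-of-ratios scaling beside them where a call or a list's count differed. One library stood apart. In 6 h mouse 1, Neat1 had 0.96 FPKM, 0.907% of the next lowest mouse, and among the 4529 genes at 10 FPKM or more in the other 17 mice no other fell below 2% of its lowest value elsewhere. No other mouse had such a gene. The same library held genes of the atrium that the other 17 lacked or had at low levels, with Myl4 at 63.0 against at most 2.89 FPKM, Myl7 at 18.7 against at most 0.49 FPKM and Sln at 12.5 against at most 0.132 FPKM. These 3 genes were looked at after their values were seen. Results at 6 h are given with and without this mouse.

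Of the 7 lncRNAs tested, 5 differed among the 6 groups in the limma F-test over 18 mice, namely H19 (adjusted p = 5.62e-09), Gas5 (1.37e-05), Meg3 (1.48e-05), Tug1 (3.72e-05) and Snhg20 (0.00106). Malat1 (0.468) and Neat1 (0.392) did not pass. The same test called 85.7% of all genes. In limma comparisons with control, called stands for a Benjamini-Hochberg adjusted p under 0.05 over all genes tested. None of the 7 was called at 10 min, where 0.346% of genes were, though 3 of the 7 had an unadjusted p under 0.05 and 14.7% of all genes did. At 1 h the only call was Snhg20, lower, against 0.722% of all genes in either direction and 0.0526% lower. At 6 h Gas5 and H19 were higher and Tug1 and Snhg20 lower, 4 of 7 against 28.3% of genes (11.6% higher and 16.8% lower), and 3 of 7 against 22.3% without 6 h mouse 1, where Tug1 was lost (adjusted p = 0.0749). Gas5 and H19 were higher after 24 h, 2 of 7 where 37.6% of genes were called and 26.2% were higher. After 72 h the higher RNAs were H19, Meg3, Gas5 and Tug1, 4 of 7 where 77.3% of genes were called and 53.1% were higher. The median log2 fold change of the 7 at 72 h was 0.43, beside 0.29 for all genes, and 0.13 beside 0.03 after median-of-ratios scaling.

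**Figure D1:**
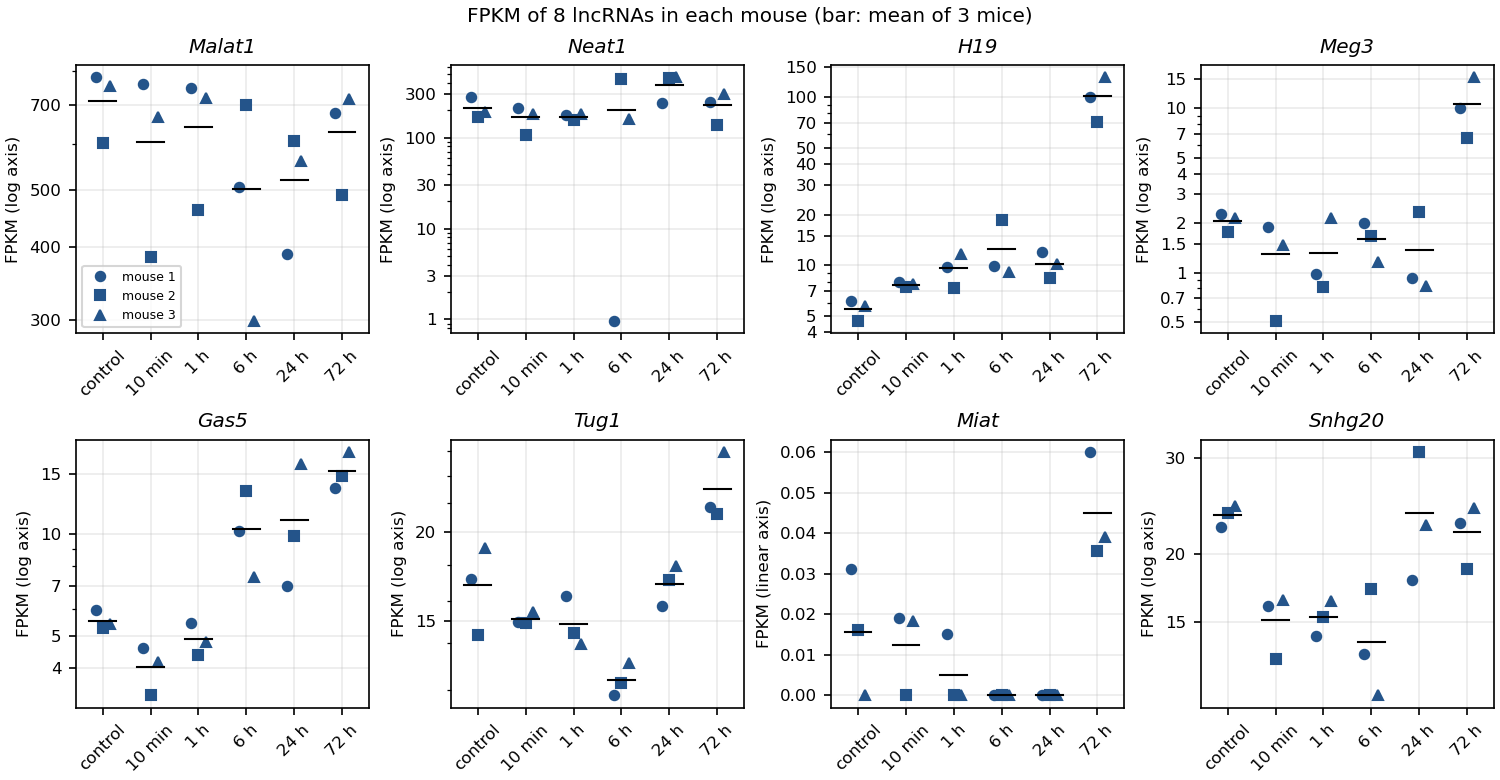
FPKM of each lncRNA (vertical axes, logarithmic except for Miat) in each of 18 mice, by group, with points for single mice and bars for means of 3. H19 and Meg3 sit low through 24 h and all 3 mice at 72 h lie above all others, Neat1 has 1 point at 0.96 FPKM at 6 h, and Miat never exceeds 0.0602 FPKM.

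Malat1, on chromosome 19 from 5795690 to 5802672 (minus strand), was the most abundant of the set, above 99.0% of tested genes in control mice. Control mice 1 to 3 had 780, 603 and 754 FPKM. The 10 min mice had 760, 385 and 667, the 1 h mice 747, 462 and 719, and the 6 h mice 508, 700 and 299 FPKM. Mice of the 24 h group had 390, 609 and 562 and those of the 72 h group 680, 490 and 716 FPKM. Every group overlapped the control mice, and the lowest single value was that of 6 h mouse 3. Against control its log2 fold change was -0.58 ± 0.28 (SE) at 6 h (adjusted p = 0.159), -0.47 ± 0.19 after 24 h (adjusted p = 0.0871) and -0.19 ± 0.16 after 72 h (adjusted p = 0.30). After median-of-ratios scaling Malat1 was called lower at 24 h (-0.62, adjusted p = 0.0329) and at 72 h (-0.50, adjusted p = 0.0245), where 17.5% and 36.0% of all genes were called lower on that scale. Without 6 h mouse 2 Malat1 was called lower at 6 h (-0.86, adjusted p = 0.0376), and without 6 h mouse 1 it was not called (-0.63, adjusted p = 0.216).

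Neat1, the scaffold of paraspeckles, is read from the same strand as Malat1 and lies on chromosome 19 from 5824708 to 5845478 (minus strand). It stood above 97.1% of tested genes in control mice. Control mice had 277, 170 and 193 FPKM, 10 min mice 213, 106 and 179 and 1 h mice 175, 154 and 181 FPKM. At 6 h mouse 1 had 0.96, mouse 2 had 439 and mouse 3 had 159 FPKM, the widest spread of the set. The 24 h mice had 240, 449 and 458 FPKM, 2 of them above all control mice, and the 72 h mice 245, 137 and 301 FPKM. At 24 h the difference from control was 0.81 ± 0.29 (SE) on the log2 scale, with an adjusted p of 0.0622, and 1.12 (adjusted p = 0.011) without 24 h mouse 1, so that Neat1 was called only when that mouse was left out. At 6 h it was -2.02 ± 1.77 (adjusted p = 0.412) with all mice and 0.34 ± 0.42 (adjusted p = 0.588) without mouse 1. At 72 h it was 0.05 ± 0.28 (adjusted p = 0.877).

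Frmd8, a coding gene 4224 bp from Neat1 on the same strand that encodes a partner of the iRhom proteins, went from a mean of 3.28 FPKM in control mice to 9.90 FPKM at 72 h (log2 fold change 1.35, adjusted p = 1.32e-06). Neither Malat1 nor Neat1 was called at 72 h as deposited.

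H19 rose the most of the set. It lies on chromosome 7 from 142575529 to 142578143 (minus strand). Control mice had 6.14, 4.66 and 5.75 FPKM. The 10 min mice had 7.95, 7.41 and 7.70 FPKM and the 1 h mice 9.81, 7.36 and 11.7 FPKM. After 6 h there were 9.95, 18.5 and 9.11 and after 24 h 11.999, 8.42 and 10.1 FPKM. The 72 h mice had 101, 70.8 and 131 FPKM. Every mouse after ligation exceeded every control mouse at each time, and the 72 h mice did not overlap any other. On the log2 scale H19 differed from control by 0.42 ± 0.10 (SE) after 10 min (adjusted p = 0.137) and 0.69 ± 0.16 after 1 h (0.167). It rose by 0.99 ± 0.24 after 6 h (0.0236), 0.77 ± 0.15 after 24 h (0.0113) and 3.93 ± 0.20 after 72 h (3.95e-07). The mean was 5.52 ± 0.766 FPKM in control mice and 100.7 ± 29.9 FPKM at 72 h (SD, n = 3), 18.2 times as high. Without 6 h mouse 1 the log2 fold change at 6 h was 1.11 (adjusted p = 0.029), and the 6 h call was lost without control mouse 1, 2 or 3 (adjusted p from 0.0612 to 0.0838). The share of all genes that lay above control without overlap was 12.2%, 7.41%, 18.6%, 39.3% and 55.1% at the 5 times in order. The step from 24 h to 72 h was 3.15 ± 0.23 (adjusted p = 7.82e-05).

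The body of H19 holds the hairpin of miR-675, a microRNA whose mature strands follow with the seed, bases 2 to 8, in capitals, from RefSeq on GRCm38.p6.
mmu-miR-675-5p, chr7:142577112-142577133, minus strand: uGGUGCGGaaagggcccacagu
mmu-miR-675-3p, chr7:142577078-142577099, minus strand: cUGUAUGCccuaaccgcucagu
The strands do not share a seed. The row Mir675 in the table stayed between 0.199 and 0.315 FPKM in all 18 mice, and such libraries do not capture mature microRNAs, so that their level was not measured. Igf2, the fetal growth factor gene imprinted in the opposite sense, lies 72623 bp away on the same strand. Igf2 had 4.97, 3.98 and 4.86 FPKM in control mice and 8.98, 5.37 and 9.07 FPKM at 72 h. Its log2 fold change was 0.63 ± 0.18 (adjusted p = 0.0101), against 3.93 for H19, and after median-of-ratios scaling it was 0.36 and not called (adjusted p = 0.0993). Mrpl23, the nearest coding gene on the other side and part of the mitochondrial ribosome, fell from a mean of 183 to 128 FPKM (log2 fold change -0.51, adjusted p = 0.000957).

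Meg3 also rose late. It lies on chromosome 12 from 109541001 to 109571726 (plus strand), with 11 annotated transcripts. Control mice had 2.26, 1.77 and 2.14 FPKM. The 10 min mice had 1.89, 0.506 and 1.47, the 1 h mice 0.983, 0.812 and 2.14, the 6 h mice 1.99, 1.67 and 1.16 and the 24 h mice 0.924, 2.34 and 0.831 FPKM. The 72 h mice had 10.0, 6.57 and 15.4 FPKM, with no overlap with any other group. Meg3 rose by 1.86 ± 0.24 on the log2 scale at 72 h (SE, adjusted p = 0.000113), and against 24 h it was 2.29 ± 0.33 (adjusted p = 0.00152). From 10 min to 24 h it lay between -0.47 and -0.24 and was not called. Without 6 h mouse 1 Meg3 was not called at 6 h either (-0.35, adjusted p = 0.108). It was called lower at 1 h without 1 h mouse 3 (-0.69, adjusted p = 0.033) and at 24 h without 24 h mouse 2 (-0.70, adjusted p = 0.0153). At these levels the added 1 FPKM shrinks the fold change, and the mean went from 2.06 ± 0.256 FPKM in control mice to 10.7 ± 4.47 FPKM at 72 h (SD, n = 3), 5.19 times as high.

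Rian and Mirg, the lncRNAs that follow Meg3 on the same strand of the same imprinted cluster and host snoRNAs and microRNAs, were called higher at 72 h as well. Rian, from 109603940 to 109661716, had 4.75, 2.81 and 6.14 FPKM in control mice and 35.7, 44.0 and 48.2 FPKM at 72 h (log2 fold change 3.01, adjusted p = 2.83e-06). Mirg, from 109729764 to 109749460, had 5.54, 0.870 and 3.89 FPKM in control mice and 40.7, 34.4 and 42.3 FPKM at 72 h (log2 fold change 3.35, adjusted p = 5.89e-05). Neither was called at 10 min, 1 h, 6 h or 24 h. The coding neighbours Dlk1 and Rtl1, imprinted in the opposite sense, stayed at or below 0.127 and 0.246 FPKM in all 18 mice and were not tested.

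**Figure D2:**
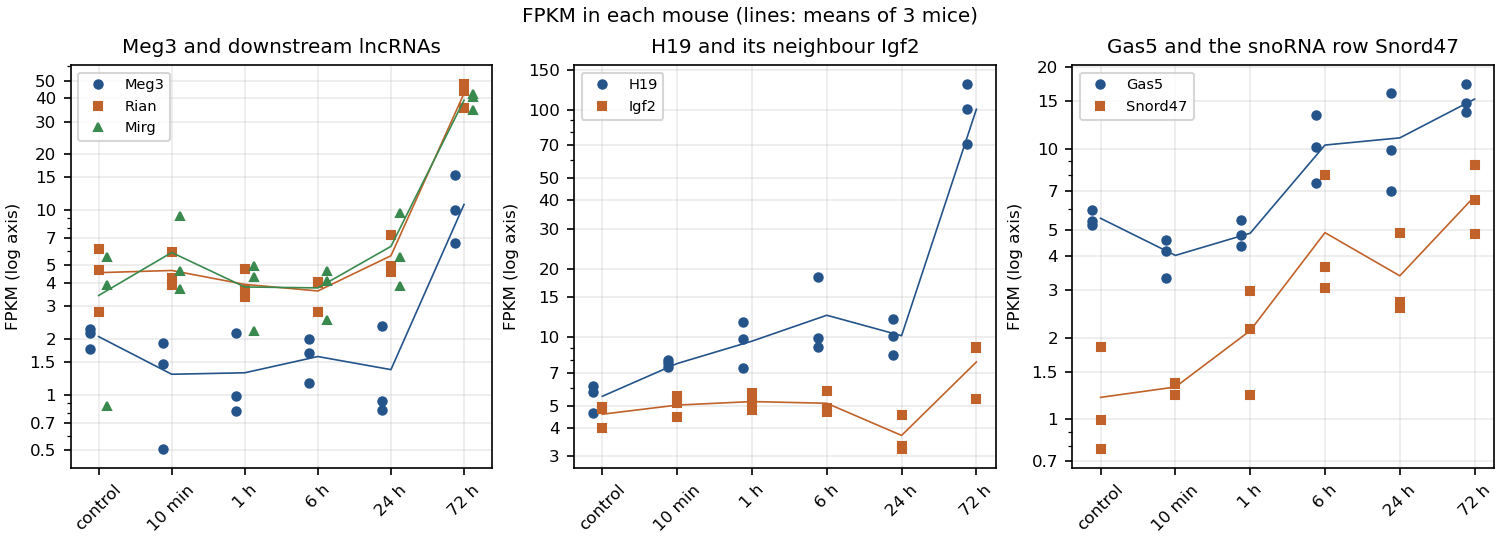
FPKM (logarithmic axes) of Meg3 with Rian and Mirg, of H19 with Igf2 and of Gas5 with the row Snord47, in each of 18 mice by group, with lines through means of 3 mice. Rian and Mirg reach 34.4 to 48.2 FPKM at 72 h, Igf2 at most 9.07 FPKM beside H19 at 70.8 to 131, and the line of Snord47 stays below that of Gas5.

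Gas5 rose from 6 h on. It lies on chromosome 1 from 161034422 to 161038539 (plus strand), overlapping Zbtb37 on the other strand, which had at most 0.722 FPKM. Control mice had 5.94, 5.25 and 5.42 FPKM, 10 min mice 4.60, 3.33 and 4.18 and 1 h mice 5.46, 4.37 and 4.79 FPKM. The 6 h mice had 10.2, 13.3 and 7.46, the 24 h mice 7.01, 9.87 and 16.1 and the 72 h mice 13.6, 14.7 and 17.4 FPKM. All mice from 6 h on exceeded all control mice, as for 18.6%, 39.3% and 55.1% of all genes after 6 h, 24 h and 72 h, and all 10 min mice lay below them, as for 8.15%. After 10 min the log2 fold change was -0.38 ± 0.11 (SE, adjusted p = 0.193). It was 0.76 ± 0.18 after 6 h (0.0222), 0.80 ± 0.25 after 24 h (0.0446) and 1.31 ± 0.10 after 72 h (3.88e-06). Without 6 h mouse 1 it was 0.75 at 6 h (adjusted p = 0.0483). Gas5 at 24 h was not called after median-of-ratios scaling (adjusted p = 0.0615), and both the 6 h and the 24 h call were lost without control mouse 1, 2 or 3 (adjusted p from 0.0618 to 0.0765 and from 0.104 to 0.124), and the 24 h call also without 24 h mouse 2 (0.0833). Gas5 was the only one of the 7 called between 1 h and 6 h, at 0.92 ± 0.19 (adjusted p = 0.0183), where 20.5% of genes were called and 9.32% were higher. That call was lost without 1 h mouse 2 (0.0752) or 3 (0.0601).

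The introns of Gas5 hold box C/D snoRNAs, which guide methylation of ribosomal RNA, and the table has a row for one of them, Snord47. Its median was 0.991 FPKM in control mice, 3.66 FPKM after 6 h, 2.73 FPKM after 24 h and 6.45 FPKM after 72 h. At 72 h its log2 fold change was 1.80 ± 0.22 (adjusted p = 7.84e-05). The row lies within the span of Gas5 on the same strand, and reads of unspliced Gas5 and of the snoRNA cannot be told apart.

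Snhg20 was the earliest of the set to be called. It lies on chromosome 11 from 117076008 to 117078955 (plus strand) and overlaps the microRNA gene Mir6516, at most 2.28 FPKM. Control mice had 22.5, 23.8 and 24.5 FPKM. The 10 min mice had 16.0, 12.8 and 16.4, the 1 h mice 14.2, 15.3 and 16.4 and the 6 h mice 13.1, 17.2 and 11.0 FPKM. All 9 of these mice lay below all control mice, as the mice of these times did for 8.15%, 10.9% and 30.2% of all genes. The 24 h mice had 17.9, 30.8 and 22.6 and the 72 h mice 22.8, 18.7 and 24.3 FPKM, overlapping the controls. On the log2 scale the difference was -0.62 ± 0.10 (SE) after 10 min (adjusted p = 0.0588), -0.59 ± 0.07 after 1 h (0.00891) and -0.76 ± 0.15 after 6 h (0.0112). It was -0.02 ± 0.18 after 24 h (0.933) and -0.11 ± 0.10 after 72 h (0.344). Snhg20 was 1 of 7 genes called lower at 1 h, of 13300 tested. The call at 1 h was lost without control mouse 2 (adjusted p = 0.0526) or 3 (0.0589) and with all 18 mice in 1 fit (0.421). After median-of-ratios scaling Snhg20 was also called lower at 10 min (-0.64, adjusted p = 0.0447, against 0.189% of genes) and at 72 h (-0.40, adjusted p = 0.00607, against 36.0% of genes). Without 6 h mouse 1 the log2 fold change at 6 h was -0.73 (adjusted p = 0.0267).

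Tug1 was called lower at 6 h and higher at 72 h in FPKM as deposited. It lies on chromosome 11 from 3639785 to 3649673 (minus strand) and overlaps Morc2a, a chromatin-silencing gene on the other strand with 6.50 to 10.6 FPKM, and the kit did not keep strand, so that reads of the shared part cannot be told apart. Control mice had 17.2, 14.4 and 19.03 FPKM, 10 min mice 14.9, 14.9 and 15.4 and 1 h mice 16.3, 14.4 and 13.9 FPKM. The 6 h mice had 11.8, 12.3 and 13.1 FPKM, all below control as for 30.2% of all genes. The 24 h mice had 15.8, 17.1 and 17.9 FPKM, among the controls, and the 72 h mice 21.7, 21.2 and 26.0 FPKM, all above control as for 55.1% of genes. Tug1 thus fell by 0.41 ± 0.11 on the log2 scale at 6 h (SE, adjusted p = 0.0344). It was 0.01 ± 0.12 from control after 24 h (0.946) and rose by 0.43 ± 0.11 after 72 h (0.00809). After median-of-ratios scaling it was -0.31 at 6 h (adjusted p = 0.0606) and 0.13 at 72 h (0.298), so that neither was called. The 6 h call was also lost without control mouse 1 (0.116) or 3 (0.123) and without 6 h mouse 1 (0.0749) or 2 (0.0634). Tug1 was the only one of the 7 called between 6 h and 24 h (0.42, adjusted p = 0.0476, where 14.4% of genes were called and 12.5% were higher). Leaving out any 1 of these 6 mice raised its adjusted p to between 0.0519 and 0.141. After median-of-ratios scaling Tug1 was not called between these times (0.19, adjusted p = 0.252). Between 24 h and 72 h it was called with H19 and Meg3 (0.42, adjusted p = 0.0215), 3 of 7 where 43.2% of genes were called and 29.7% were higher. That call was lost without 24 h mouse 1 (0.0607) or 2 (0.0519), without 72 h mouse 3 (0.0967) and after median-of-ratios scaling (0.0823). Between 10 min and 1 h none of the 7 was called, and none had an unadjusted p under 0.05, where 0.602% and 13.1% of genes did.

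Miat, on chromosome 5 from 112213228 to 112229395 (minus strand), was close to absent. It was listed at 0 in 10 of 18 mice, among them all 6 mice at 6 h and 24 h. The control mice had 0.0312, 0.0161 and 0 FPKM and the 72 h mice 0.0602, 0.0356 and 0.0390 FPKM, which were the 3 highest values. Of the 10 min and 1 h mice, 3 were above 0, at 0.0151 to 0.0191 FPKM. These are too low for a test.

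**Figure D3:**
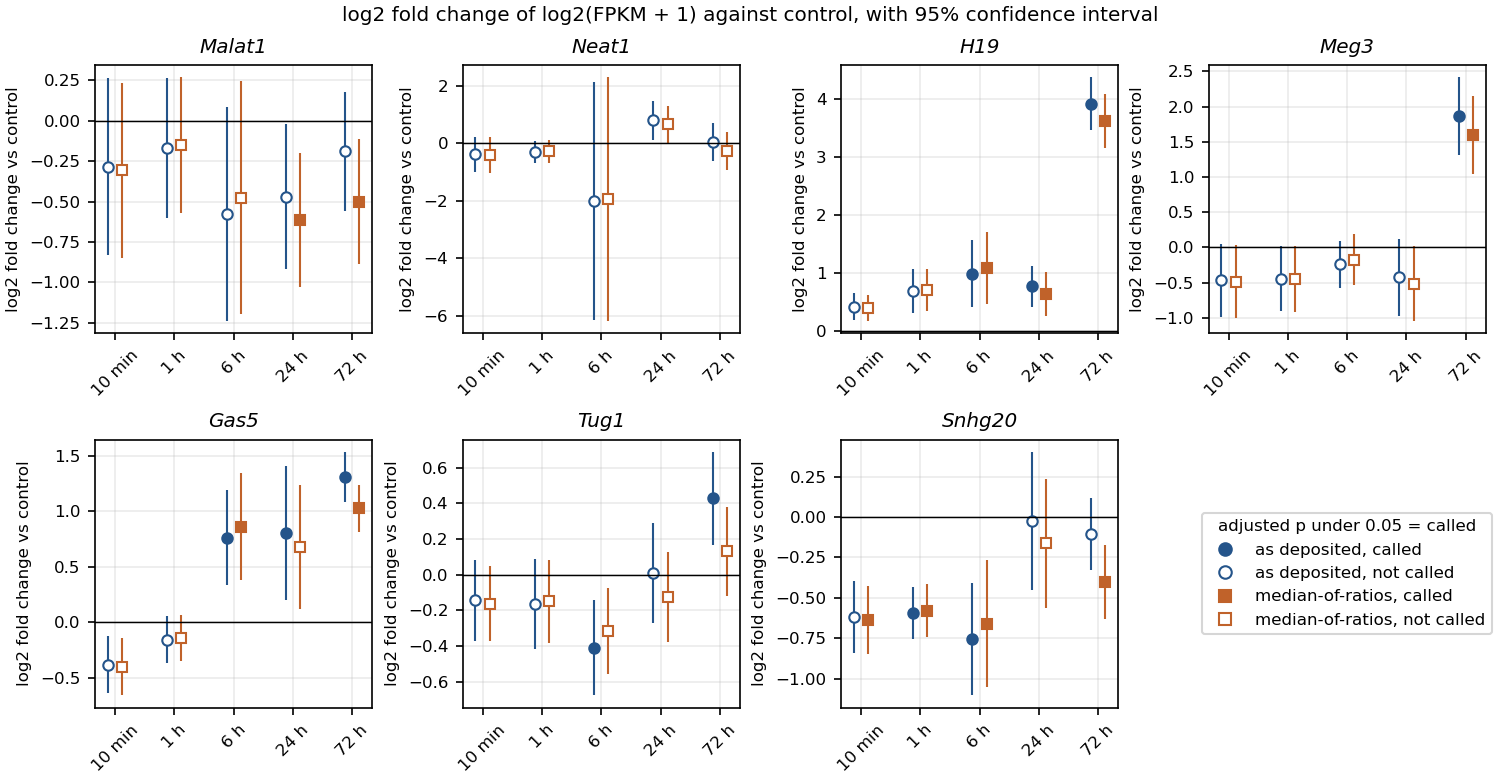
Log2 fold change of log2(FPKM + 1) against control (vertical axes) at 5 times for the 7 lncRNAs tested, with 95% confidence intervals from limma, 3 mice per group. Circles show FPKM as deposited and squares median-of-ratios scaling, filled where the adjusted p was under 0.05. H19 at 72 h stands at 3.93 and 3.63, and Malat1 and Snhg20 at 72 h are filled only as squares.

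Mice of 1 group differed from each other in several of these RNAs at once. The deviation of each mouse from its group mean, on log2(FPKM + 1), was compared for all 21 pairs of the 7 RNAs, with an exact permutation test over the 46656 orders within groups (two-sided, Benjamini-Hochberg adjusted over the 21 pairs). Over 18 mice Malat1 deviated with Snhg20 (Pearson r 0.76, Spearman rho 0.74, adjusted exact p = 0.0324 and 0.047), with Gas5 (r 0.72, rho 0.75) and with Meg3 (r 0.70, rho 0.70), and Meg3 with Snhg20 (r 0.72, rho 0.74), all at the same adjusted exact p. Without the 2 mice farthest from the median of the first RNA these r were 0.68, 0.63, 0.63 and 0.65. The other 17 pairs did not pass for r. With 6 h mouse 1 left out these 4 pairs still passed for r, but the rho of Malat1 with Snhg20, Gas5 and Meg3 did not (adjusted exact p = 0.0596, 0.0596 and 0.0513). Malat1 and Neat1 gave r 0.19 and rho 0.54 over 18 mice (adjusted exact p = 0.785 and 0.174).

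Without 6 h mouse 1, a choice made after its Neat1 value was seen, Malat1 and Neat1 gave r 0.915 and rho 0.843 over 17 mice (adjusted exact p = 0.0054 and 0.0108 over 15552 orders). Without the 2 mice farthest from the median of Malat1, 6 h mouse 3 and 10 min mouse 2, r was 0.875. Neat1 also passed for r with Snhg20 (r 0.799, adjusted exact p = 0.0489), Gas5 (r 0.762, 0.0489) and Meg3 (r 0.687, 0.0365) over these 17 mice, but not for rho. The same mouse was the lowest of its group in both Malat1 and Neat1 in all 5 groups of 3. This was mouse 2 in the control, 10 min, 1 h and 72 h groups and mouse 1 at 24 h. Of all tested genes, 0.0600% had an r with Malat1 at or above this value, and the median r with Malat1 was -0.01. Among named genes the highest r with Neat1 were those of Ccnl2 (0.957), Firre (0.955) and Irf3 (0.950), and Snrnp70, a protein of the U1 splicing particle, was among the highest 5 of both (0.941 with Malat1 and 0.934 with Neat1). Ccnl2 encodes a cyclin of nuclear speckles, and Firre is a nuclear lncRNA. These were picked for their r and carry no test. Deviations in relative depth gave r -0.36 with Malat1 and -0.44 with Neat1 over the same 17 mice, and the part of depth in the pattern was not tested.

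**Figure D4:**
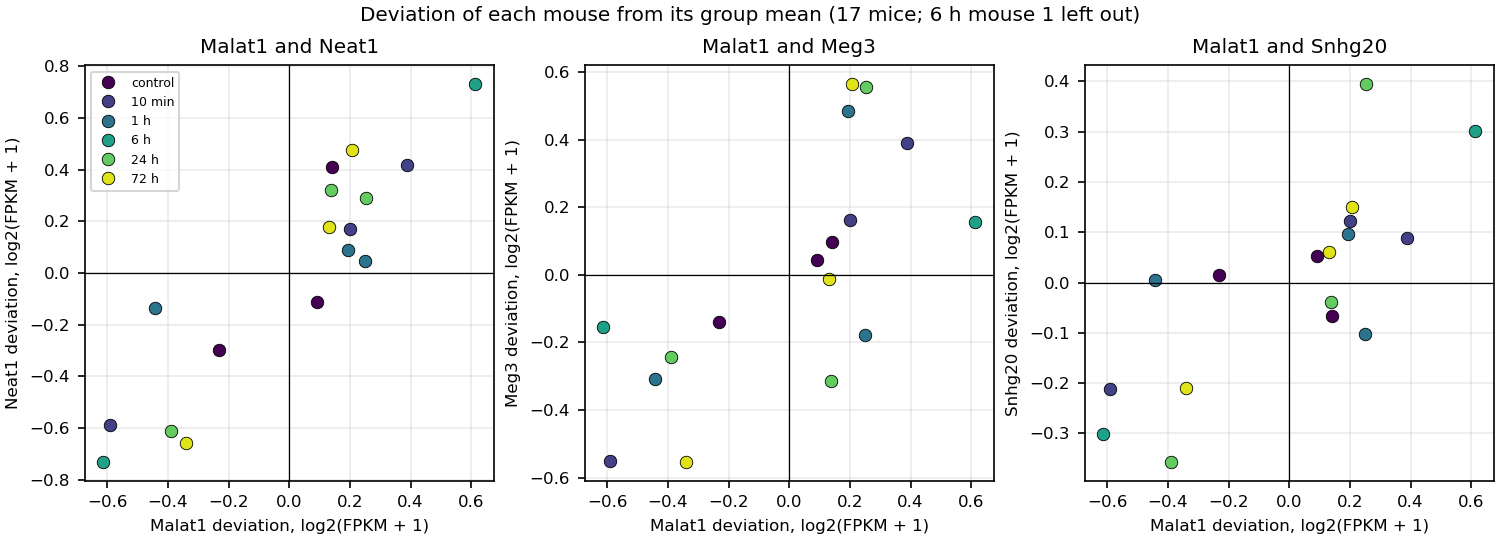
Deviation of each mouse from its group mean on log2(FPKM + 1), Malat1 (horizontal axes) against Neat1, Meg3 and Snhg20 (vertical axes), coloured by group, 17 mice without 6 h mouse 1. Points rise from lower left to upper right, with r 0.915, 0.699 and 0.768, and the 2 remaining 6 h mice mirror each other by construction.

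Over the 18 mice the genes most alike in level to each RNA were listed by Pearson r of log2(FPKM + 1), as a description that includes differences among the 6 groups. Malat1 and Neat1 did not pass the F-test over these groups (adjusted p = 0.468 and 0.392). H19 was most like Plekha4 (r 0.97), Ctsl (0.97) and Ctsd (0.96), the latter both genes of lysosomal proteases. Meg3 was most like Cst3 (0.95), the cystatin C gene, Smim24 (0.94) and Hist1h2ag (0.94). Gas5 was most like Zfp948 (0.97), Snhg5 (0.96), another snoRNA host, and the phosphate transporter gene Slc20a1 (0.96). Tug1 was most like Unc50 (0.96), Rtn3 (0.95) and Pigc (0.95). Snhg20 was most like Mir143hg (0.90), the host of miR-143, Spef1 (0.86) and the heme synthesis gene Ppox (0.85). Malat1 was most like Hdgfrp2 (0.87), Dffb (0.85) and Lime1 (0.84), and Neat1 like the Polycomb gene Ring1 (0.82), Psmg1 (0.80) and Otub1 (0.79). The r with Neat1 include 6 h mouse 1, at 0.96 FPKM against 106 FPKM in the next lowest mouse.

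Other snoRNA host lncRNAs were set beside Gas5. Of 13 tested, 6 were called higher and 3 lower after 6 h, 4 and 1 after 24 h and 10 and 1 after 72 h. Of all genes, 11.6% were called higher and 16.8% lower after 6 h, and 26.2% and 53.1% were called higher after 24 h and 72 h. Their median log2 fold changes in the same order were 0.35, 0.50 and 0.73, beside -0.08, 0.13 and 0.29 for all genes. None was called at 10 min or 1 h. After median-of-ratios scaling the medians were 0.43, 0.43 and 0.48, the counts at 6 h were 7 and 2, and Snhg7, named after its value was seen, was called lower at 10 min (-0.94, adjusted p = 0.0449). Without 6 h mouse 1 the counts at 6 h were 5 and 2, where 22.3% of all genes were called. Snhg18 went from 13.7 ± 1.37 to 47.4 ± 3.89 FPKM between control and 72 h (SD, n = 3), a rise of 1.72 on the log2 scale (adjusted p = 4.91e-07), Snhg5 from 7.01 ± 0.313 to 21.2 ± 2.07 FPKM (1.47, adjusted p = 8.76e-07) and Snhg17 from 4.99 ± 0.764 to 10.3 ± 1.58 FPKM (0.91, adjusted p = 0.000199). Snhg14, the long host of the Prader-Willi region snoRNAs, fell from 5.87 ± 0.769 to 2.51 ± 0.530 FPKM (-0.97, adjusted p = 0.000144). Snhg18 was lower than control at 6 h (-0.36, adjusted p = 0.0466), a call lost after median-of-ratios scaling (0.0972).

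Of 14 other known lncRNAs tested, 5 were called higher and 3 lower at 72 h, where 77.3% of all genes were called, with a median log2 fold change of 0.04. After median-of-ratios scaling 5 were higher and 5 lower, and the median was -0.18. Besides Rian and Mirg, Dnm3os, the host of fibroblast microRNAs, went from 0.717 ± 0.402 to 9.63 ± 2.17 FPKM (SD over 3 mice, 2.64 on the log2 scale, adjusted p = 2.79e-06). Mhrt, antisense to the myosin gene Myh6, fell from 20.1 ± 2.94 to 7.28 ± 2.74 FPKM (-1.40, adjusted p = 0.000449), and was also called lower at 24 h (-1.09, adjusted p = 0.00869). Without strand, reads of Mhrt cannot be told from those of Myh6, which fell from 5024 ± 221 to 1376 ± 238 FPKM (-1.88, adjusted p = 3.52e-06).

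Proteins that share the nuclear bodies of Neat1 and Malat1 were described as lists. Of 13 paraspeckle protein genes, 1 was called higher and 1 lower after 6 h, 5 and 0 after 24 h and 10 and 1 after 72 h. Of all genes, 11.6% were called higher and 16.8% lower after 6 h, and 26.2% and 53.1% were called higher after 24 h and 72 h. Without 6 h mouse 1 the paraspeckle counts at 6 h were 1 and 2, where 22.3% of all genes were called. With median-of-ratios scaling the paraspeckle counts were 3 and 1 after 24 h and 8 and 1 after 72 h. Nono, a core paraspeckle protein, went from 41.4 ± 1.54 to 88.8 ± 6.98 FPKM (SD over 3 mice, 1.08 on the log2 scale, adjusted p = 2.41e-06) and Nudt21, a factor of 3′ end cleavage, from 9.88 ± 0.418 to 19.5 ± 0.910 FPKM (0.91, adjusted p = 4.08e-06). Rbm14 (0.86, adjusted p = 1.33e-05) rose as well. Hnrnpk was called higher only as deposited (0.77, adjusted p = 0.00873) and not after median-of-ratios scaling (0.46, adjusted p = 0.071). Of 10 nuclear speckle protein genes, 6 were called higher and none lower at 72 h, and after median-of-ratios scaling 4 and 3. The splicing factor Srsf3 went from 78.2 ± 4.82 to 157 ± 8.93 FPKM (1.00, adjusted p = 3.71e-06) and Srsf7 from 22.2 ± 1.66 to 42.3 ± 2.93 FPKM (0.90, adjusted p = 1.10e-05). The list medians at 72 h were 0.53 and 0.37, beside 0.29 for all genes and 0.05 and -0.19 for Neat1 and Malat1. After median-of-ratios scaling they were 0.23 and 0.06, beside 0.03 for all genes and -0.26 and -0.50 for Neat1 and Malat1.

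Other imprinted genes, Igf2 among them, were set beside H19 and Meg3. Of 14 tested, 11 were called higher and 3 lower at 72 h, where 77.3% of all genes were called and 53.1% were higher. Dcn, named for its overlap, is counted as higher both here and among the fibroblast markers below. Imprinting of these genes in the heart was not tested. After median-of-ratios scaling the counts were 10 and 3. The list medians on the 2 scales were 0.70 and 0.41, beside 0.29 and 0.03 for all genes. After 24 h the counts were 2 and 3, where 37.6% of all genes were called. After 6 h they were 1 and 2, where 28.3% were called, and without 6 h mouse 1 they were 1 and 3, against 22.3%. Mest went from 1.78 ± 0.590 to 21.2 ± 5.01 FPKM (SD over 3 mice, 2.99 on the log2 scale, adjusted p = 1.89e-06), Ndn, the necdin gene, from 8.14 ± 1.14 to 26.9 ± 1.63 FPKM (1.62, adjusted p = 1.40e-06), and the zinc finger gene Plagl1 from 1.39 ± 0.0858 to 4.97 ± 0.461 FPKM (1.32, adjusted p = 1.99e-06). Cdkn1c, the cell cycle inhibitor p57, fell from 32.7 ± 3.17 to 8.16 ± 1.93 FPKM (-1.90, adjusted p = 6.64e-06).

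**Figure D5:**
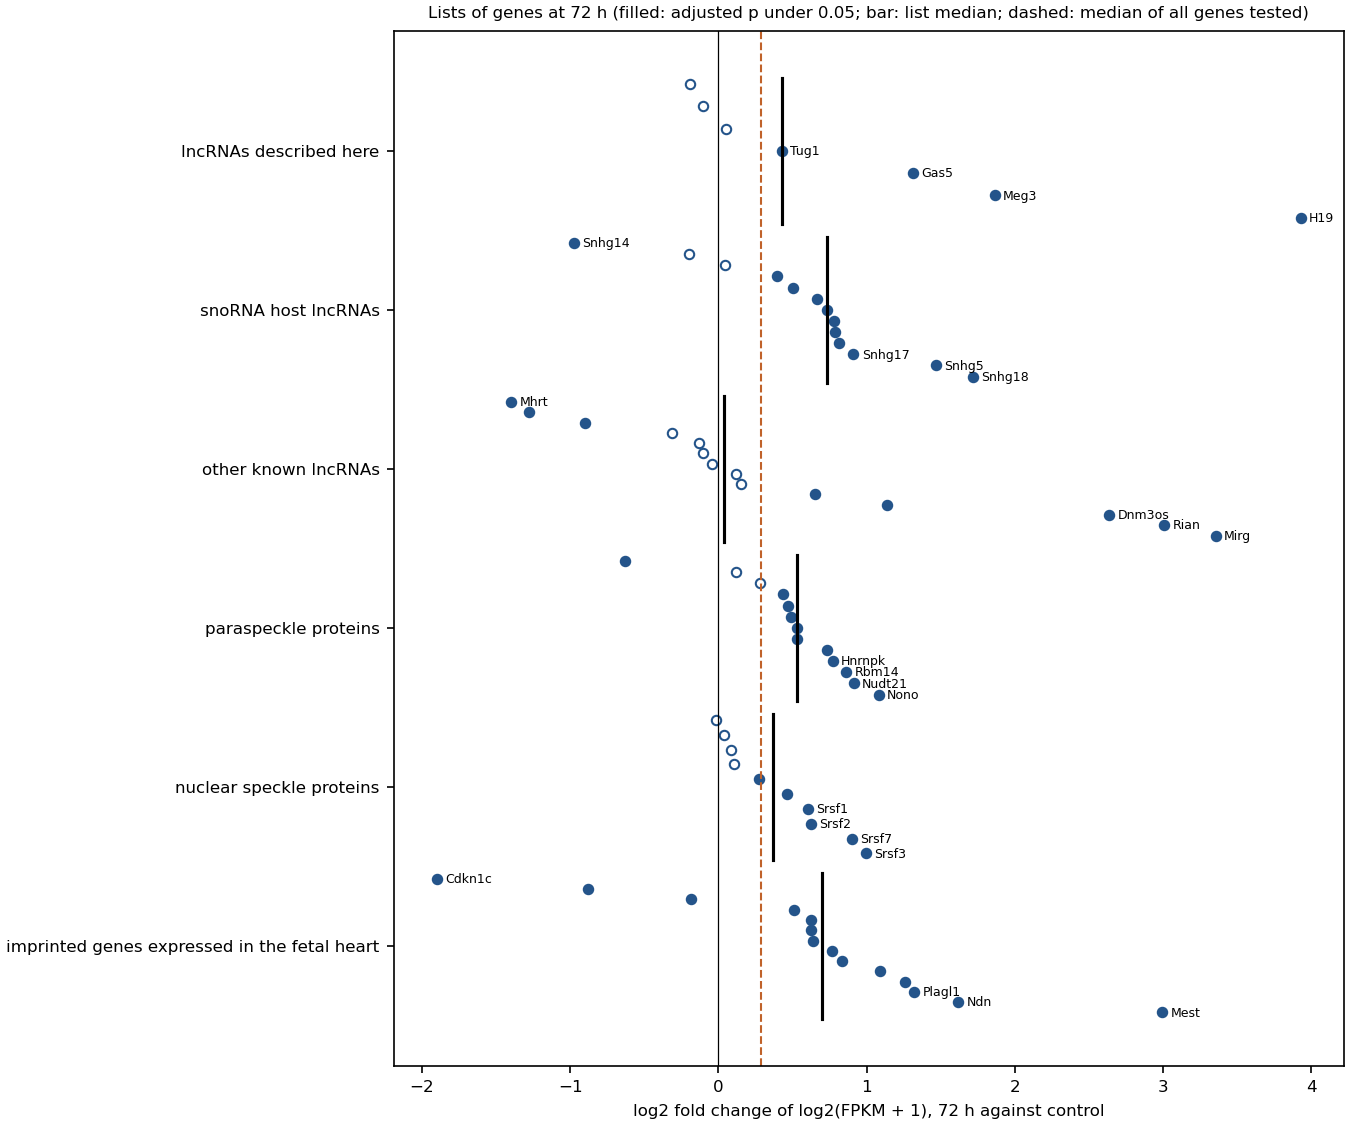
Log2 fold change of log2(FPKM + 1) at 72 h against control (horizontal axis) for the tested genes of 6 lists, 1 point per gene and 3 mice per group, filled where the adjusted p was under 0.05, with list medians as bars and the median of all genes, 0.29, as a dashed line. The snoRNA host list lies mostly right of the dashed line, with Snhg14 at -0.97, and Mest, Rian and Mirg are the points near 3.

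Markers of other cell types were also called at 72 h, and many of them already at 24 h, where 37.6% of all genes were called. After 24 h all 8 leukocyte markers tested were called higher. Of 9 fibroblast markers 5 were called higher and 1 lower (5 and 2 after median-of-ratios scaling), and of 9 cardiomyocyte markers 6 were called lower. Meg3 was not called at 24 h, and H19 was called from 6 h on. All 9 fibroblast markers were called higher at 72 h, with Postn, the periostin gene, at 7.09 ± 1.52 FPKM in control mice and 663 ± 18.0 FPKM at 72 h (SD, n = 3, log2 fold change 6.37, adjusted p = 8.73e-09). All 8 leukocyte markers tested were called higher, with Cd68 at 5.54 ± 1.18 and 199 ± 12.2 FPKM (4.95, adjusted p = 1.93e-08). All 9 cardiomyocyte markers were called lower, with a median log2 fold change of -1.56. At 72 h 77.3% of all genes were called and 53.1% were higher. Of 6 endothelial markers 1 was called higher and 3 lower, and of 6 smooth muscle and pericyte markers 3 and 2. These became 0 and 4 and 2 and 3 after median-of-ratios scaling. Of 5 erythroid markers tested 2 were called lower. In the list of RNAs without a poly(A) tail, 4 genes were tested, with 2 higher at 72 h and none after median-of-ratios scaling. After 24 h 1 was called higher on either scale. The sum of the list ran from 70.8 to 83.6 FPKM in control mice, from 119 to 137 FPKM at 24 h and from 89.6 to 94.6 FPKM at 72 h. The part of these markers in the levels of the lncRNAs was not tested.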

How the data were processed

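RNA-seq of 18 mice was analysed, 3 per group. Per the labels and the study's methods, poly(A) RNA was taken with poly-T beads and made into libraries with a NEBNext Ultra RNA kit, which keeps no strand. The deposited FPKM per gene came from StringTie 1.3.4d after the authors had trimmed with cutadapt 1.18 and aligned to mm10 with HISAT2 2.1.0. Cufflinks and Cuffdiff are also named in the submitters' processing notes. They were used without rescaling. The annotation is not given in the sources used here.

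Genes with at least 1 FPKM in at least 1 mouse were tested as log2(FPKM + 1) with limma 3.58.1 in R 4.3.3 (lmFit, eBayes with a variance trend), each comparison on its own 6 mice. Tests were two-sided, and p-values were adjusted by Benjamini-Hochberg across every gene tested. A fold change on this scale understates that of low genes. Genes with the same value in all mice compared were left out. The fit was tested on simulated data. Nothing says that the mice differed in anything but their group, and p-values measure the spread between 3 mice. Counting error cannot be computed from FPKM. The lncRNAs and all gene lists were chosen with earlier results of these data known. All 8 lncRNAs are named, from each list at most the 4 tested genes with the largest log2 fold change at 72 h, the 3 genes most alike to each lncRNA, leaving out predicted genes, and the nearest coding or overlapping genes, not all of which are reported here. Atrial genes and genes alike within groups were chosen after their values were seen. Same-numbered mice of groups compared did not deviate together in every pair, so numbers were not taken as pairs. Sequences are those of GENCODE M21 and RefSeq. Python 3.11.15, numpy 2.4.6, pandas 2.3.3, scipy 1.17.1 and matplotlib 3.10.9 were used. Alternatives were a pseudocount of 0.1, 2 other filters, median-of-ratios, sum and quantile scaling, all 18 mice in 1 fit, a replicate block, no variance trend and leaving out each mouse.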

Additional observations from a re-analysis of the deposited data

Results flagged for a closer look

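The change between neighbouring times, which is the test of the difference between 2 effects against the same control mice, passed for 5 results. Gas5 was higher at 6 h than at 1 h by 0.92 on the log2 scale, a call lost without 1 h mouse 2 or 3. Tug1 was higher at 24 h than at 6 h by 0.42 and at 72 h than at 24 h by 0.42, in FPKM as deposited. Neither was called after median-of-ratios scaling (0.19, adjusted p = 0.252, and 0.26, adjusted p = 0.0823). H19 was higher at 72 h than at 24 h by 3.15 and Meg3 by 2.29. Groups of 3 mice are too small for a test of single outlying mice, and the Neat1 value of 6 h mouse 1 is given as a description.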

How the results depend on the processing

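Every member called against control or between neighbouring times kept its direction under all alternatives. H19 and Meg3 at 72 h, against control and against 24 h, and Gas5 at 72 h against control also stayed called under all of them. The counts of members called that moved by over 1.5 times were, at 10 min, 1 in place of 0 with a filter on the mean FPKM, median-of-ratios scaling or quantile normalization, at 1 h 0 in place of 1 with all 18 mice in 1 fit, at 24 h 1 in place of 2 without a filter or with quantile normalization, and between 6 h and 24 h 0 in place of 1 without a filter and under median-of-ratios or quantile scaling, and 2 with all 18 mice in 1 fit. Median-of-ratios scaling also gave 3 in place of 4 at 6 h, 5 in place of 4 at 72 h and 2 in place of 3 between 24 h and 72 h. With a replicate block the count between 6 h and 24 h was 0. The labels give same-numbered mice only a number, and correlations of their deviations over all genes ran from -0.33 to 0.41. These correlations cannot show whether same-numbered mice were handled together, which was not tested. Leaving out 1 mouse gave 0 to 2 calls at 1 h, 1 to 4 at 6 h, 1 to 3 at 24 h, 0 to 1 between 1 h and 6 h and between 6 h and 24 h, and 2 to 4 between 24 h and 72 h. Some values that were not called changed sign, the largest of them Neat1 at 6 h, at -2.02 with all mice. Under median-of-ratios and quantile scaling, in this order, Tug1 at 24 h was -0.13 and -0.17 and Neat1 at 72 h was -0.26 and -0.083. Without 1 mouse in turn, Malat1 ranged from -0.48 to 0.0084 at 10 min and from -0.30 to 0.051 at 1 h, Neat1 from -3.56 to 0.34 at 6 h and from -0.19 to 0.38 at 72 h, Tug1 from -0.093 to 0.10 at 24 h and Snhg20 from -0.22 to 0.16 at 24 h. The cause was not tested. Depth is known only in relative terms, and 3 mice per group limit the precision.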
